A study of Drosophila melanogaster with 4 samples.

Results

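This account covers genes of phototransduction and of the visual pigment cycle in heads of Drosophila melanogaster males given vigabatrin (VGB), an antiepileptic drug that inactivates GABA transaminase. The list holds 33 genes chosen by name. A probe was taken for a listed gene when the platform annotation gave it exactly 1 gene with that symbol or current symbol, which found 17 probes of 15 genes among the 13824 probes of the array (7558 with 1 gene name). Of these 15 genes, 10 had a measured value on any array and 8 had a value on at least 3 arrays. The tested flies were unmated Oregon R wild-type males, 10 to 11 days old, moved for 3 days to food with VGB at 24 mg per ml. The flies they were set against were the same strain, sex and age, kept for the same 3 days on normal food (NF). Vials held 30 flies, and frozen heads were pooled for RNA, so each value stands for many animals. RNA of 1 VGB pool and 1 NF pool was hybridised together on each of 4 two-colour cDNA arrays, with VGB in Cy5 on replicates 1 and 2 and in Cy3 on replicates 3 and 4.

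In the fly eye, light turns rhodopsin in the microvilli of the rhabdomere into metarhodopsin, which activates a Gq protein and through it a phospholipase C. Breakdown of the membrane lipid PIP2 then opens the channels TRP and TRPL, and calcium entering through them acts back on the cascade through protein kinase C, arrestins and a rhodopsin phosphatase. The chromophore of rhodopsin is made from dietary carotenoids and recycled with the help of pigment cells around the photoreceptors. The retina makes up a large part of the head, and transcripts of some of these genes are abundant in head RNA. Their abundance was not measured here.

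Each deposited value is a log ratio between the dyes. Its base is not given in the files or labels used here and is taken as 2. They hold no level of either pool, so the head label could not be checked against marker levels, and a shift could not be told apart between fewer cells of a type and less RNA per cell. Each array's median was subtracted, because the medians over probes as deposited were 1.04, 1.03, 0.51 and 0.44 on replicates 1 to 4. The sources used here do not say whether the ratio of the dye-swapped arrays was formed as Cy5 over Cy3 or as VGB over NF. Every result is therefore given under both readings. In the turned reading the values are taken as Cy5 over Cy3 and the signs of replicates 3 and 4 are turned. In the unturned reading all 4 arrays are taken as VGB over NF. In both, a positive value means higher with VGB than with NF.

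The listed genes passed the authors' spot filters far more often than other genes on the array. Of the 17 probes, 9 (52.9%) were measured on 3 or more arrays, against 585 of the 7558 probes with 1 gene name (7.74%). A value on all 4 arrays was found for 6 of the 17 probes (35.3%) and for 312 of the 7558 (4.13%). By array, 7, 9, 10 and 11 of the 17 probes had a value on replicates 1 to 4, which was 41.2%, 52.9%, 58.8% and 64.7% of them. The corresponding shares of all probes with 1 gene name were 23.3%, 9.31%, 11.1% and 25.7%. These shares are descriptions of what passed filters on signal, background, saturation and spot quality, and they say nothing of the direction of a change. The list was chosen with earlier results of these data known. Whether that choice has a part in these shares was not tested.

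**Figure D1:**
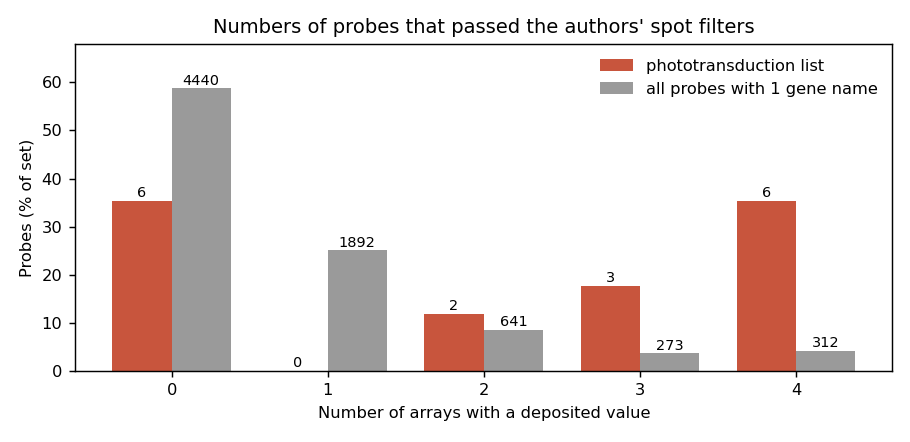
Bars show the share of probes, in percent of each set, by the number of arrays with a deposited value, for the 17 probes of the phototransduction list and for all 7558 probes with 1 gene name, with the number of probes above each bar. Of the listed probes 6 had a value on all 4 arrays and 6 on none, against 312 and 4440 of all named probes.

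Of the genes on the array, 5 had no value at all. They were Arr2, the major arrestin of the photoreceptor, rdgA, the diacylglycerol kinase, rdgB, a phosphatidylinositol transfer protein with 2 probes, santa-maria, a scavenger receptor for carotenoid uptake, and ninaG, an oxidoreductase of chromophore synthesis. The other 18 listed genes matched no probe with a single gene name and were not analysed here. These include all 5 listed opsins (ninaE, Rh3, Rh4, Rh5 and Rh6), the phospholipase C gene norpA, the Gq partners Gbeta76C and Ggamma30A, and inaE, a diacylglycerol lipase. The rhodopsin chaperone ninaA, the chromophore genes ninaB and ninaD, the myosin III gene ninaC and the sodium-calcium exchanger Calx are also among them, as are stops, CdsA, eys and prom. What follows therefore describes the alpha subunit of the G protein, the channels, the scaffold, the kinase, the rhodopsin phosphatase and a lipid phosphatase. It also covers 1 arrestin, 1 pigment-cell enzyme and 1 rhabdomere protein, and not the visual pigments.

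No listed probe differed between VGB and NF past an adjusted p of 0.05, over 1114 probes tested with limma on at least 3 arrays. In the turned reading 0 of the 9 tested listed probes passed, against 0.359% of all tested probes, and the smallest limma adjusted p among them was 0.915. With no array turned 0 of 9 passed, with 0% of all tested probes, and the smallest limma adjusted p was 0.111, for Arr1. At an unadjusted p under 0.05 the turned reading held 0 of the 9, against 8.44% of all tested probes. The unturned reading held 2 of the 9 at that level, Arr1 and trpl, both higher with VGB, against 14.0% of all tested probes in either direction and 11.8% on the higher side.

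**Figure D2:**
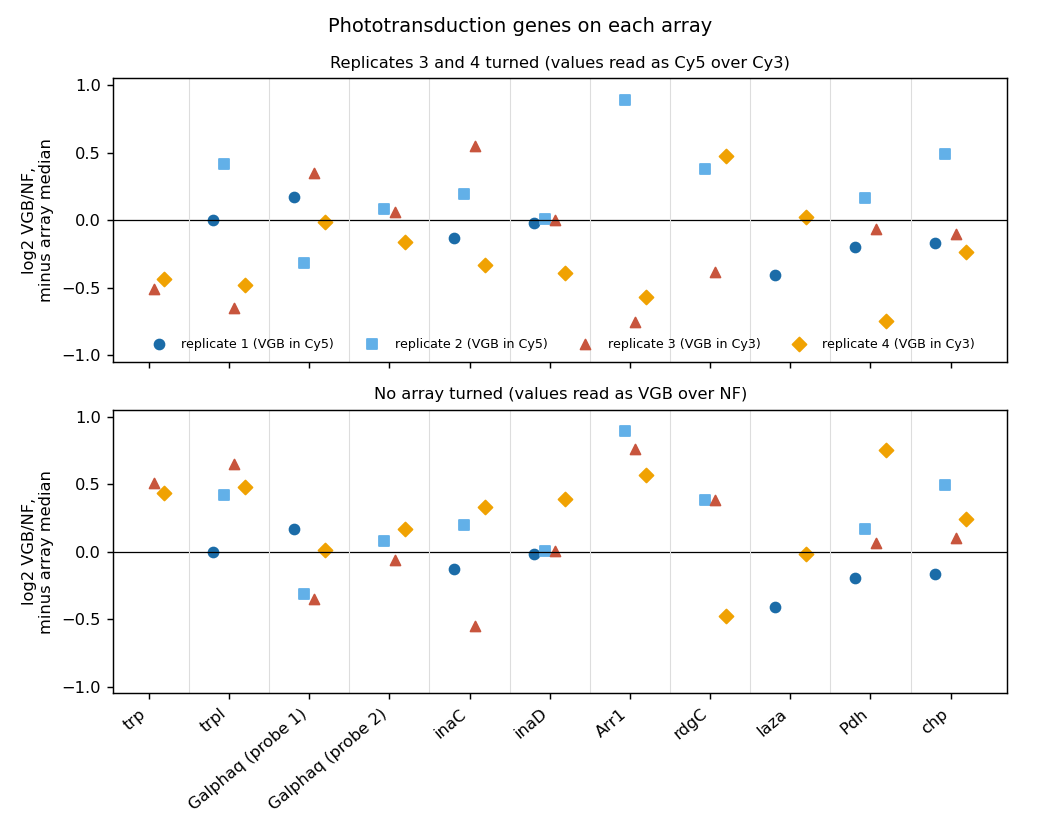
Each point is the log2 ratio of VGB to NF on 1 array after subtraction of that array's median, for the 11 probes with a value, under the turned reading (top) and the unturned reading (bottom). Arr1 lies at 0.89, 0.76 and 0.57 on replicates 2, 3 and 4 in the bottom panel and on both sides of 0 in the top panel.

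The widest separation from the array medians was that of Arr1, the arrestin that binds activated rhodopsin and takes part in its uptake from the rhabdomere. Relative to the median of each array and with the sign as deposited, Arr1 stood at 0.89 on replicate 2, 0.76 on replicate 3 and 0.57 on replicate 4, with no value on replicate 1. All 3 arrays lay above 0, on both dye orders. Read as VGB over NF throughout, this is a mean log2 ratio of 0.74 ± 0.16 (SD, n = 3), a linear ratio of 1.67, higher on 3 of 3 arrays, with an unadjusted limma p of 0.000298 and an adjusted p of 0.111. Its p was the third smallest of the 1114 tested probes in that reading. Turning replicates 3 and 4 made the same 3 values 0.89, -0.76 and -0.57, with a mean of -0.14 ± 0.90 (SD, n = 3; limma adjusted p = 0.994). That mean was -0.66 without replicate 2 (limma adjusted p = 0.0832), where only replicates 3 and 4 remain, both with VGB in Cy3. In that fit drug and dye cannot be told apart. The mean was 0.16 without replicate 3 and 0.068 without replicate 4, so its direction turned with the array left out. In the unturned reading the Arr1 mean ran from 0.66 to 0.82 with 1 array left out. Only 1 of the 3 arrays carries VGB in Cy5, so for Arr1 the dye orders are not balanced. When probes were averaged per gene, Arr1 passed in the unturned reading, with a limma adjusted p of 0.0419, among 5 of 565 genes that passed. Arr1 has 1 probe, so its own values and its mean of 0.74 did not change. What changed was the set it was tested in. This was the only listed value to pass among the alternatives tried on centred values, whose limma adjusted p ran from 0.0419 to 0.522 for Arr1.

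Both light-activated channels of the eye were on the array. For trpl, which encodes the channel TRPL, the values with the deposited sign were -0.001, 0.42, 0.65 and 0.48 on replicates 1 to 4. Replicate 1 lay at the array median and the other 3 arrays above it. The mean log2 ratio of trpl was 0.39 ± 0.28 (SD, n = 4) in the unturned reading, higher on 3 of 4 arrays, with an unadjusted limma p of 0.0142 and an adjusted p of 0.22. The turned reading gave -0.18 ± 0.48 (SD, n = 4; limma adjusted p = 0.988). In the turned reading, leaving out 1 array in turn gave trpl means from -0.38 without replicate 2 (limma adjusted p = 0.354) to -0.02 without replicate 3, with -0.078 without replicate 4. In the unturned reading the trpl means ran from 0.30 to 0.51 (limma adjusted p from 0.133 to 0.614). The gene trp, which encodes the main light-activated calcium channel, had values on replicates 3 and 4 alone, at 0.51 and 0.43 with the deposited sign. Its mean over these arrays was therefore -0.47 in the turned and 0.47 in the unturned reading, and both arrays carry VGB in Cy3. With values on 2 arrays it was left out of the fit over probes on at least 3.

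Galphaq encodes the G protein subunit that couples rhodopsin to phospholipase C and had 2 probes. The first stood at 0.17, -0.32, -0.35 and 0.0125 on replicates 1 to 4 with the deposited sign, and the second at 0.082, -0.061 and 0.16 on replicates 2 to 4. Both straddled 0. Their mean log2 ratios were 0.047 ± 0.28 (SD, n = 4) and -0.0072 ± 0.14 (SD, n = 3) in the turned reading and -0.12 ± 0.25 (SD, n = 4) and 0.062 ± 0.11 (SD, n = 3) in the unturned one. The limma adjusted p of the 2 probes was 0.997 for both in the turned reading and 0.711 and 0.883 in the unturned one. The second probe had the smallest range between arrays of the 9 tested probes, 0.23 on the log2 scale with the deposited sign.

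The signalling complex of the rhabdomere was represented by the scaffold inaD and the eye protein kinase C inaC. The scaffold gene inaD, whose product holds the TRP channel, phospholipase C and protein kinase C together, stood at -0.017, 0.007, 0.001 and 0.39 on replicates 1 to 4 with the deposited sign. Replicate 4 lay apart from the other 3 arrays, which were at the array median. The mean log2 ratio of inaD was -0.10 ± 0.19 in the turned and 0.095 ± 0.20 in the unturned reading (SD, n = 4; limma adjusted p = 0.989 and 0.764). Without replicate 4 the mean of inaD was -0.0037 in the turned and -0.003 in the unturned reading. For inaC the values were -0.13, 0.20, -0.55 and 0.33, which spread over 0.88 between replicates 3 and 4 although both carry VGB in Cy3. Its mean log2 ratio was 0.072 ± 0.38 in the turned and -0.038 ± 0.39 in the unturned reading (SD, n = 4; limma adjusted p = 0.997 and 0.943).

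Genes that return the cascade to rest differed in how well they were measured. The rhodopsin phosphatase gene rdgC stood at 0.38, 0.39 and -0.48 on replicates 2, 3 and 4 with the deposited sign. Replicates 3 and 4, of the same dye order, thus lay on opposite sides of 0. Its mean log2 ratio was 0.16 ± 0.47 in the turned and 0.097 ± 0.50 in the unturned reading (SD, n = 3; limma adjusted p = 0.988 and 0.846). The gene laza, for a lipid phosphatase that acts on phosphatidic acid, had values on replicates 1 and 4 alone, at -0.41 and -0.021 with the deposited sign. The 2 duplicate spots of laza on replicate 1 differed by 0.79, the largest such difference among the listed genes. With values on 2 arrays laza was also left out of that fit, and when probes on at least 2 arrays were tested, 0 of the 11 listed probes, trp and laza included, passed limma in either reading.

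Pdh encodes a dehydrogenase of the pigment cells that is needed to recycle the chromophore. Its values with the deposited sign were -0.20, 0.16, 0.065 and 0.75 on replicates 1 to 4, so that replicate 4 lay highest and replicate 1 below 0. The mean log2 ratio of Pdh was -0.21 ± 0.39 in the turned and 0.19 ± 0.40 in the unturned reading (SD, n = 4; limma adjusted p = 0.915 and 0.571). It rested on replicate 4, without which it was -0.033 and 0.010. The gene chp encodes chaoptin, a photoreceptor surface protein that joins the microvilli of the rhabdomere. It stood at -0.17, 0.49, 0.10 and 0.24 on replicates 1 to 4, above 0 on the 3 arrays other than replicate 1. Its mean log2 ratio was -0.0041 ± 0.34 in the turned and 0.17 ± 0.28 in the unturned reading (SD, n = 4; limma adjusted p = 0.997 and 0.588).

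**Figure D3:**
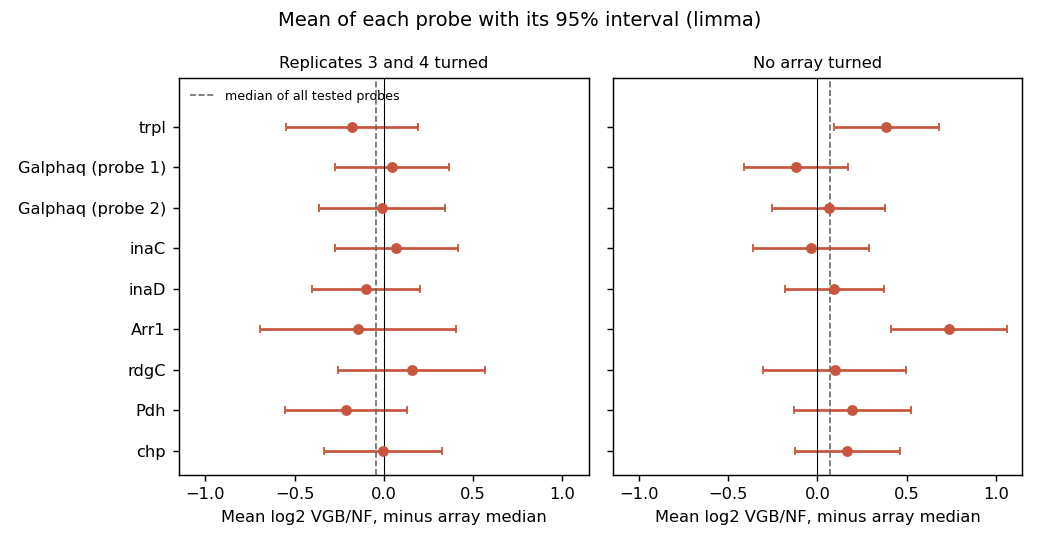
Points are mean log2 ratios of VGB to NF for the 9 listed probes on at least 3 arrays, with bars for the unadjusted 95% confidence interval from limma, under the turned (left) and unturned (right) readings, and the dashed line is the median of all 1114 tested probes. All 9 intervals hold 0 on the left, and those of Arr1 (0.42 to 1.06) and trpl (0.09 to 0.68) lie above 0 on the right.

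A test that misses the threshold leaves room for changes of the size the intervals allow. In the turned reading the unadjusted 95% intervals of limma ran from -0.40 to 0.20 for inaD, the narrowest of the 9, and from -0.69 to 0.41 for Arr1, the widest. The unturned reading gave intervals from -0.18 to 0.37 for inaD and from -0.30 to 0.50 for rdgC, the widest there. The 4 arrays limit the precision, and leaving out 1 array changed no call for a listed probe in either reading.

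The listed genes as a group were read beside all tested probes, with no test of the group. In the turned reading 6 of the 9 tested probes were below 0 and 3 above, with a median log2 ratio of -0.0072, while 61.0% of all 1114 tested probes were below 0, with a median of -0.043. With no array turned 7 of 9 were above 0 and 2 below, with a median of 0.097, while 64.0% of all tested probes were above 0, with a median of 0.069. The median SD between arrays was 0.38 for the 9 probes and 0.27 for all tested probes in the turned reading, and 0.28 and 0.24 in the unturned one. No listed probe had 1 sign on every array measured in the turned reading, against 19.3% of all tested probes. Unturned, 1 of 9 did, Arr1 on the higher side, against 28.4% in either direction and 19.9% on the higher side.

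The position of the listed genes within each array differed by replicate. With the deposited sign, 8 of 9 measured probes were above the array median on replicate 2 and 9 of 11 on replicate 4, and 7 of 10 on replicate 3. On replicate 1 only 1 of 7 was above it, the first Galphaq probe at 0.17. These counts include trp and laza, which were not among the tested probes. For the listed tested probes alone, 1 of 6, 8 of 9, 6 of 9 and 8 of 9 were above 0 on replicates 1 to 4. Among all tested probes the shares above 0 were 48.7%, 56.9%, 55.3% and 71.4% on replicates 1 to 4. The lean of the listed genes above 0 on replicate 4 thus lay beside a like lean of the tested probes, whose median there was 0.22. The median of the listed tested probes was -0.073, 0.20, 0.065 and 0.33 on replicates 1 to 4. Whether the measured strength of these spots has a part in these positions was not tested, since the deposited values hold no intensities.

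Because each dye order has 2 arrays, the part of a ratio that follows the dye can be set apart from the part that follows the drug for probes on all 4 arrays. The mean over the arrays with VGB in Cy5 and that over the arrays with VGB in Cy3 were 0.21 and 0.56 for trpl, 0.16 and 0.17 for chp, and -0.017 and 0.41 for Pdh with the deposited sign. For trpl and chp both dye-order means thus lay above 0, though on replicate 1, with VGB in Cy5, they stood at -0.001 and -0.17. The other listed probes on all 4 arrays did not lie above 0 on both. Their means, in the same order, were 0.034 and -0.11 for inaC, -0.005 and 0.20 for inaD, and -0.074 and -0.17 for the first Galphaq probe. In a limma model with treatment and dye, 0 of the 6 listed probes on all 4 arrays had a dye term past an adjusted p of 0.05 in the turned reading, against 6.94% of 591 probes. The nearest was trpl, with a dye term of 0.39 (adjusted p = 0.0596, limma). For the treatment term 0 of the 6 passed in that reading, against 4.57% of all 591, and the term was -0.18 for trpl (adjusted p = 0.635, limma) and -0.21 for Pdh (adjusted p = 0.564, limma). Under the unturned reading the terms change places, so that the 0.39 of trpl becomes its treatment term. These arrays do not settle which of the terms is the drug.

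**Figure D4:**
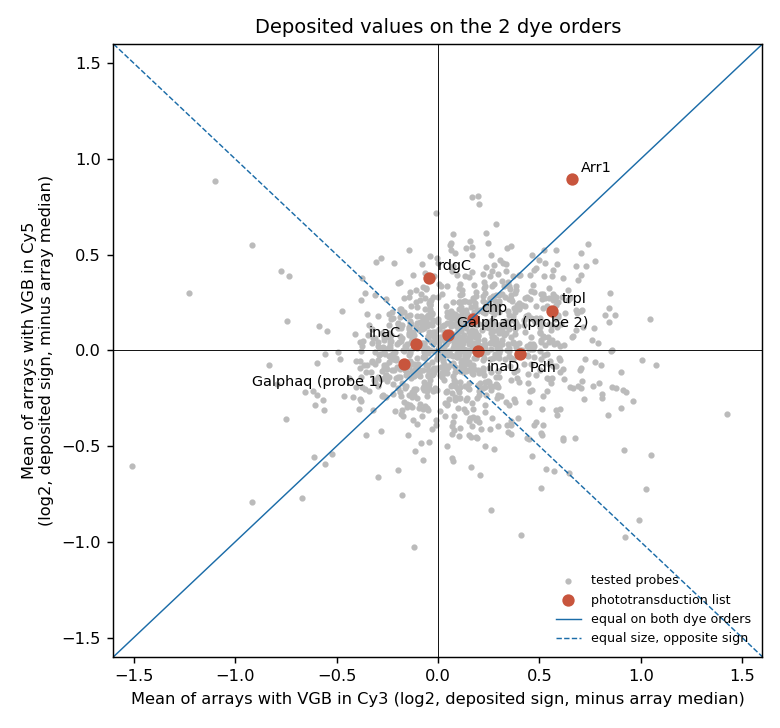
Each point is a tested probe, with its mean over the arrays with VGB in Cy3 on the x axis and over the arrays with VGB in Cy5 on the y axis, both log2 with the deposited sign and relative to the array median, and the 9 listed probes are named. Arr1, at 0.66 and 0.89, lies near the solid line of equal values on both dye orders, which counts as a VGB difference in the unturned reading and as a dye difference in the turned one. One of the 1114 tested probes lies outside the axes.

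Duplicate spots give the spread within an array. Over the 37 pairs of adjacent duplicate spots of listed genes the median difference was 0.12 on the log2 scale. The range between arrays of the 9 tested probes, taken with the deposited sign only, had a median of 0.65. A range over 3 or 4 arrays and a difference between 2 spots are unlike measures. By array the median difference between duplicates was 0.21, 0.09, 0.11 and 0.12 for the listed genes, against 0.26, 0.16, 0.14 and 0.14 for all probes, on replicates 1 to 4. For Arr1 the duplicates differed by 0.09, 0.43 and 0.18 on replicates 2, 3 and 4.

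Other genes of the eye were read from 4 further lists. Of 48 genes for phosphoinositide turnover, rhodopsin trafficking and related functions, 22 were on the array and 7 were tested, and 0 passed in either direction in either reading (smallest limma adjusted p = 0.875 turned and 0.29 unturned). Their median log2 ratio was -0.034 with 4 of 7 below 0 in the turned reading, and 0.046 with 4 of 7 above 0 in the unturned one. The gene rtp, for retinophilin, a rhabdomere protein, stood at 0.14, 0.33, 0.23 and 0.59 on replicates 1 to 4 with the deposited sign. Xport-A, which encodes a chaperone needed for TRP and rhodopsin to reach the rhabdomere, stood at 0.17, 0.27, 0.16 and 0.42. Both lay above 0 on 4 of 4 arrays with that sign, as did 18.3% of the 591 probes on all 4 arrays.

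Unturned, the mean log2 ratio was 0.32 ± 0.19 for rtp (limma adjusted p = 0.29) and 0.25 ± 0.12 for Xport-A (limma adjusted p = 0.379; SD, n = 4 each). Turned, they were -0.086 ± 0.41 and -0.034 ± 0.31 (SD, n = 4 each; limma adjusted p = 0.997 for both). Pis, the phosphatidylinositol synthase gene, had 0.12 ± 0.17 in the turned and -0.075 ± 0.20 in the unturned reading (SD, n = 4; limma adjusted p = 0.988 and 0.83). The calnexin gene Cnx99A, the protein kinase C gene Pkc53E, the exchanger gene Nckx30C and the G protein gene Galphas were measured on 3 arrays. Their mean log2 ratios were 0.13, -0.11, -0.26 and 0.054 in the turned reading and -0.051, 0.15, 0.046 and -0.20 in the unturned one.

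Photoreceptors signal to the brain with histamine. Hdc, the histidine decarboxylase gene that makes it, stood at 0.34, 0.22, 0.20 and 0.46 on replicates 1 to 4 with the deposited sign. It was above 0 on 4 of 4 arrays, as were 18.3% of the 591 probes on all 4 arrays. The mean log2 ratio of Hdc was 0.31 ± 0.12 in the unturned reading (SD, n = 4; limma adjusted p = 0.291) and -0.027 ± 0.37 in the turned one (SD, n = 4; limma adjusted p = 0.997). The gene t (tan), whose enzyme frees histamine from its conjugate after release, had 0.081 ± 0.14 in the turned and -0.00033 ± 0.17 in the unturned reading (SD, n = 3). These were the 2 tested genes of 14 listed for histamine and transmitter recycling. Of 23 screening pigment genes only Pu, which encodes a GTP cyclohydrolase of pteridine synthesis, was tested, at -0.24 ± 0.19 in the turned and -0.02 ± 0.35 in the unturned reading (SD, n = 3; limma adjusted p = 0.901 and 0.98). Of 29 genes for eye specification and photoreceptor polarity 9 were on the array and 0 had a value on at least 3 arrays.

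Markers of cell types were as sparse. Of 11 photoreceptor markers, all of them also in the phototransduction list, 4 were on the array, 3 had a value and 2 (Arr1 and chp) were tested. Of markers of other cells in the head, 0 of 6 neuronal, 1 of 7 glial, 1 of 8 fat body, 2 of 7 muscle and 1 of 5 haemocyte genes were tested, and 0 of their probes passed in either reading. The median log2 ratio of the fat body gene's 2 probes was -0.63 in the turned and -0.052 in the unturned reading, that of the muscle genes was 0.10 and 0.11, the glial gene stood at -0.041 and 0.075, and the haemocyte gene at 0.62 and -0.36. In the turned reading both fat body probes lay below 0 on 4 of 4 arrays (limma adjusted p = 0.165 each). The haemocyte probe lay above 0 on 3 of 3 (limma adjusted p = 0.28). The glial and muscle probes had mixed signs, and 19.3% of all tested probes had 1 sign on every array measured. Unturned, the fat body and haemocyte probes had mixed signs too. The part of cell composition in the values of the listed genes was not tested.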

How the data were processed

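Heads of VGB-treated and NF flies were compared on 4 arrays, 1 group of 4 replicates. Per the labels and the design text of the series, the authors measured the scanned spots in GenePix Pro 6.0 and normalized the ratio in Acuity 4.0. Their filters removed flagged spots, spots with 3% or more saturated pixels, and spots with an R2 below 0.6 or a signal under 3 times the noise, and their test was one-class SAM 2.21. The deposited log ratios, taken as log2, covered 5631, 2559, 3032 and 6460 of 27648 spots on replicates 1 to 4, and without intensities no depth or background can be given. Their log base, centring and direction on the swapped arrays are not stated. Values below 0 were found on every array, and base 2 is an assumption that was not tested.

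Adjacent duplicate spots, which carried the same gene, were averaged and each array's median over its probes was subtracted. Names came from the old platform annotation, brought up to date by Entrez identifier with NCBI's Release 6 gene table (7447 of 7558 probes with 1 gene matched; 51 had several and 6215 none). Positions are not printed, as the files name no build. Probes on at least 3 arrays (1114) were tested with limma 3.58.1 (R 4.3.3; lmFit and eBayes, intercept only, two-sided, Benjamini-Hochberg adjustment at 0.05), and the script was tested on simulated data. Each pair of pools was a parallel set of vials, per the design text. Alternatives were the other sign coding, no centring, centring of each printed block of 576 spots, quantile normalization, at least 2 or all 4 arrays, a dye term, single spots, probes averaged per gene, one-class SAM with all 16 sign changes, and each array left out. Centring on the tested probes, and all alternatives of the unturned reading, were added after seeing the data.

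The genes and lists were chosen with earlier results of these data known. The naming rule was that every listed gene with a value is named with its values, those without are named only, and genes of the eye lists with values on at least 3 arrays may be named.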

Additional observations from a re-analysis of the deposited data

Results flagged for a closer look

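One array stood apart for inaD. Replicate 4 lay at -0.39 in the turned and at 0.39 in the unturned reading, while the other 3 arrays lay at the array median. Chance alone marks about 1 in 20 groups of 4 in this way, and 20 gene and reading pairs were looked at.

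For 4 genes every measured array with VGB in Cy5 lay above 0 and every measured array with VGB in Cy3 below 0 in the turned reading. The difference between the means of the 2 dye orders was 1.56 for Arr1, 0.64 for rtp, 0.61 for Hdc and 0.51 for Xport-A on the log2 scale. For the 3 genes on all 4 arrays the difference was tested as the dye term of the limma model, with adjusted p of 0.121 for rtp, 0.131 for Hdc and 0.232 for Xport-A, and none passed. For Arr1, with 1 array of the first dye order, the difference was not tested. In the unturned reading these 4 genes had 1 sign, the higher, on every array measured, as did 19.9% of all 1114 tested probes. The 2 patterns are the same values read in 2 ways, so that share holds for both.

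In the unturned reading Nckx30C and Pu lay below 0 on the measured array with VGB in Cy5 and above 0 on both arrays with VGB in Cy3, differing by -0.55 and -0.57 for arrays with VGB in Cy5 minus arrays with VGB in Cy3. Each has 1 array of the first dye order, and the difference was not tested.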

How the results depend on the processing

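The sign of the swapped arrays turned the direction of 8 of the 9 tested listed probes, and the cause of the other shifts was not tested. With no array turned, trpl, inaC, inaD, Arr1, the 2 Galphaq probes, Pdh and chp stood at 0.39, -0.038, 0.095, 0.74, -0.12, 0.062, 0.19 and 0.17, opposite to the turned reading, and rdgC kept its sign. Turned, 0 listed probes passed under any alternative. Values as deposited, without centring, gave 0.10 for trpl, 0.18 for inaD, 0.021 for the second Galphaq probe, 0.068 for Pdh and 0.28 for chp. Block centring gave 0.037 for Arr1, 0.13 for the second Galphaq probe and 0.11 for chp. Quantile normalization gave 0.017 for chp, and centring on the tested probes 0.0465 for chp and 0.058 for the second Galphaq probe. Single spots gave -0.012 for the first Galphaq probe (spot 2), 0.055 for the second (spot 1) and 0.028 for chp (spot 2), and averaging per gene 0.042 for Galphaq. Leaving out 1 array in turn gave ranges of -0.17 to 0.074 for chp, -0.087 to 0.21 for inaC, -0.66 to 0.16 for Arr1, -0.053 to 0.17 and -0.052 to 0.0715 for the Galphaq probes, and -0.0023 to 0.43 for rdgC.

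In the unturned reading, values as deposited put 9 of 9 listed probes past the threshold, with a median of 0.85 and with inaC at 0.72 and the first Galphaq probe at 0.63. This follows from array medians above 0, since 1068 of all 1114 probes passed as well. Averaging per gene put 1 listed gene, Arr1, past it, although Arr1 has 1 probe and its mean did not change. The second Galphaq probe stood at -0.017 with block centring, -0.0455 centred on the tested probes and -0.016 averaged per gene, rdgC at -0.011 centred on the tested probes, inaC at 0.0061 and inaD at -0.017 on spot 1. Leaving out 1 array gave -0.048 to 0.38 for rdgC, -0.16 to 0.13 for inaC and -0.003 to 0.13 for inaD. Arr1, trpl, Pdh and chp were above 0 in the unturned reading under each alternative tried.

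Over all 1114 tested probes the turned reading called 4 (1 higher and 3 lower). On the same probes the count was 0 as deposited, 0 with no array turned and 1 with block centring. It was 6 with quantile normalization (1 higher and 5 lower) and 8 centred on the tested probes (3 higher and 5 lower). With 1 array left out it ran from 0 (without replicate 4) to 23 (without replicate 2). Other alternatives tested sets of other sizes, so their counts are not changes over 1 set. They called 0 of 2107 probes with at least 2 arrays, 2 of 591 on all 4 arrays and 9 of 2228 single spots. Per gene 15 of 565 were called, and with a dye term 27 of 591 (1 higher and 26 lower). The unturned reading called 0 of 1114, against 1 with quantile normalization and 0 to 1 with 1 array left out. Unturned, 5 of 565 were called per gene and 41 of 591 with a dye term. One-class SAM called 3 and 0. At an unadjusted p under 0.05, limma had 156 probes in the unturned reading. No further pairing was modelled, because each array already holds 1 VGB and 1 NF pool, so that the ratio is the pairing.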
